A study of Mus musculus with 2 samples.

Results

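Low-Stra8 spermatogonia were barcodes with a unique molecular identifier (UMI, 1 captured RNA molecule) for at least 3 of 8 spermatogonial genes and with 0 to 4 UMIs of Stra8. The 8 genes were Crabp1, Dmrt1, Sall4, Sohlh1, Kit, Rhox13, Stra8 and Zbtb16. Barcodes with a UMI for 3 or more of the 6 meiotic genes Prdm9, Rad51ap2, Dmc1, Meiob, Gm960 and Inca1 were left out. Barcodes with 4 or more of the 7 Sertoli genes Cst9, Cst12, Cldn11, Defb19, Defb36, Rhox8 and Aard were also left out, as were those with 40 or more UMIs per 10000 from the 4 Leydig genes Insl3, Cyp17a1, Hsd3b1 and Cyp11a1. The rule was met by 537 of 12768 barcodes, 95 of 5756 in the WT library and 442 of 7012 in the KO library. Since the members were chosen by these UMIs, the levels of the 8 genes are given as a description. Single-cell RNA was sequenced from testes of 12-week-old C57BL/6 mice of the WT and the Alkbh5-/- (KO) genotype, with 1 library per genotype. Homozygous KO mice came from heterozygous parents, so the deletion was not confined to germ cells, and untreated WT mice were the controls. The study's text gives both 1 and 3 mice per genotype, so a library may be a pool. ALKBH5 removes the N6-methyladenosine (m6A) mark from RNA.

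Spermatogonia are the mitotic germ cells on the basal side of the seminiferous tubule. Undifferentiated spermatogonia hold the stem cells and answer to GDNF through the receptor genes Gfra1 and Ret, whereas differentiating spermatogonia depend on the receptor tyrosine kinase KIT and divide several times before meiosis. Retinoic acid drives the step from undifferentiated to differentiating spermatogonia and, later, meiotic entry, and Stra8 is its best known target at both steps.

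The sequence just before the Stra8 start is shown because Stra8 divides these spermatogonia from their high-Stra8 neighbours. It spans chr6:34920698-34920947 on the + strand of GRCm38.p6 (RefSeq), 250 bases, and the capitals mark AGGTCA, the half-site letters bound by nuclear receptors such as the retinoic acid receptors.
Stra8: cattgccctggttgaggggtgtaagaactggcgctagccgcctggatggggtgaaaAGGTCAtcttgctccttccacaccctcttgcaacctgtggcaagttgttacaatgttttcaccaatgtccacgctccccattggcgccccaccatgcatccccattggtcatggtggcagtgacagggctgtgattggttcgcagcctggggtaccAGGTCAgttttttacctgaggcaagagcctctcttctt
Both strands were searched (AGGTCA and its reverse complement TGACCT), and the 2 matches lay 194 and 38 bases before the start. At least 1 match was found in 15.8% of the 27025 genes with such a sequence, and at least 2 in 1.52%. Among the other genes of the rule in the same table, Sohlh1 had 1 match, and Crabp1, Kit and Rhox13 had 0. A match of letters is a description and was not tested as a binding site.

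The members made up 1.65% of the WT barcodes (95% exact Clopper-Pearson interval 1.34% to 2.01%) and 6.30% of the KO barcodes (5.75% to 6.90%). The ratio of KO to WT was 3.82 (exact conditional interval 3.05 to 4.82). High-Stra8 spermatogonia, which met the same rule with 5 or more Stra8 UMIs, numbered 30 in WT and 331 in KO, and their share was 9.06 times higher in KO (6.22 to 13.6). Early spermatocytes, with 3 or more of the 6 meiotic genes, numbered 73 and 278, with a ratio of 3.13 (2.41 to 4.10). There were 3.17 low members per high-Stra8 barcode in WT (2.08 to 4.95) and 1.34 in KO (1.16 to 1.54). These intervals cover counting error only, each genotype had 1 library, and no difference between genotypes was tested.

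Other cell types moved with these shares. Leydig-rich barcodes were 1.32% of the WT and 15.4% of the KO library, and barcodes rich in haploid RNA, with Prm1, Prm2, Tnp1 and Tnp2 together at 300 or more UMIs per 10000, were 53.5% and 28.4%. Counted over barcodes without signs of Sertoli cells, Leydig cells or macrophages, the member shares were 1.70% and 8.22%, a ratio of 4.83. The members had a median of 7960 UMIs in WT (range 5209 to 39463) and 6741 in KO (4795 to 33241), while the library medians were 10905.5 and 9117.5. With every barcode thinned to 5729 UMIs, which left out 362 WT and 914 KO barcodes, 67 WT (1.24%) and 335 KO barcodes (5.49%) met the rule, a ratio of 4.42. The 2 libraries shared 45 barcode sequences, of which 0 were WT members and 3 were KO members.

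In the WT library 55 members had no Stra8 UMI, 23 had 1, 8 had 2, 4 had 3 and 5 had 4. In KO the counts were 145, 145, 56, 58 and 38, so Stra8 was at 0 in 57.9% of WT and 32.8% of KO members. At the limit, 3 WT and 39 KO barcodes just outside had 5 UMIs, beside 5 and 38 just inside with 4, so the Stra8 counts ran on without a gap. On the other side of the rule, 33 WT and 135 KO members had exactly 3 of the 8 genes, and 36 and 117 barcodes with 2 of them were outside.

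**Figure D1:**
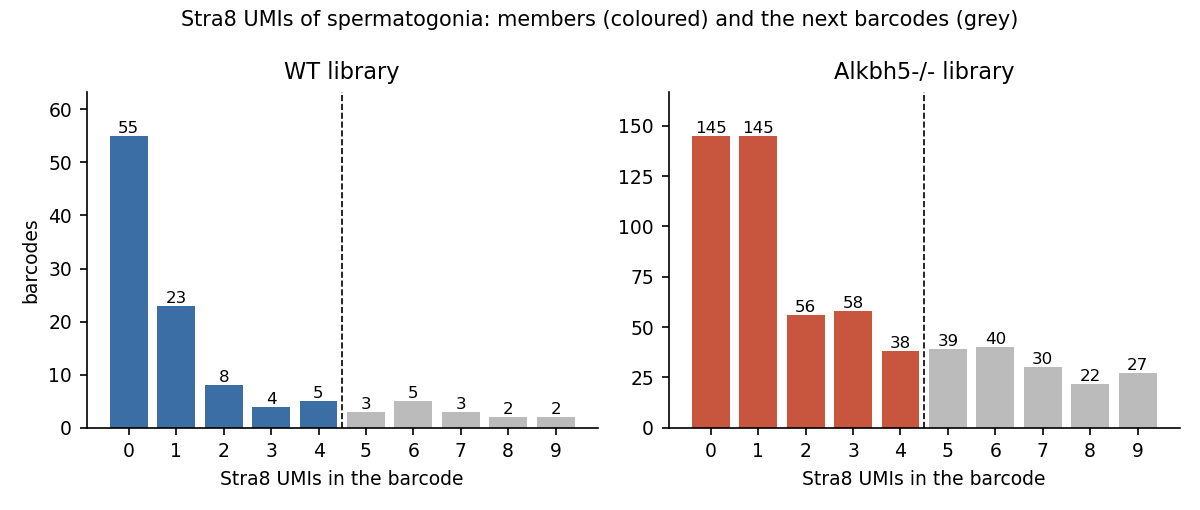
Number of barcodes (vertical axis) with 0 to 9 Stra8 UMIs (horizontal axis) among spermatogonia of the WT and the KO library, members coloured and the next barcodes grey, with the dashed line at the limit of the rule. The WT bars fall from 55 at 0 UMIs to 5 at 4 UMIs, and the KO bars at 0 and 1 UMI are both 145.

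Levels are UMIs of a gene summed over a group of barcodes, per 1000000 UMIs of the group (CPM). The members held 980547 UMIs in WT and 3442597 in KO. Crabp1, a cytoplasmic retinoic acid binding protein, was at 294 CPM in WT and 314 CPM in KO, with a UMI in 89.5% and 79.9% of members. Dmrt1, a transcription factor that holds spermatogonia in mitosis, was at 160 and 222, and Rhox13, an X-linked homeobox gene, at 158 and 212. Sohlh1, a factor of differentiation, was at 59.2 and 92.1, and Kit at 63.2 and 51.4. The stem and progenitor factors Sall4 (40.8 and 48.5) and Zbtb16 (19.4 and 30.2) had a UMI in fewer members, 25.3% and 26.2% for Sall4. Zbtb16 had a UMI in too few members for the size criterion between genotypes that is given below, and the other 6 genes did not pass it. Stra8 itself, at 72.4 and 169, did pass it, within a range that the rule had set. It was at 1260 and 1270 in high-Stra8 spermatogonia and at 1002 and 1041 in early spermatocytes.

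Some markers outside the rule went with the label, and others did so less clearly or not at all. Uchl1, a ubiquitin hydrolase long used to stain spermatogonia, had a UMI in 89.5% of WT and 86.0% of KO members, against 1.32% and 4.07% of Leydig-rich barcodes. Dazl, an RNA-binding protein of germ cells, had one in 97.9% and 99.5% of members, against 5.13% and 14.7% of haploid-rich barcodes. The median depth was 10077 and 7962 UMIs in Leydig-rich barcodes and 9777 and 9526.5 in haploid-rich ones, so both classes were deeper than the members. Thinned to 5243 UMIs, which left out 1 WT and 68 KO members, Crabp1 was seen in 75.5% and 70.1% of members, Uchl1 in 78.7% and 79.9%, Kit in 28.7% and 24.1%. Kit gave the least separation, since Leydig-rich barcodes, a cell type that also expresses it, held it in 27.6% and 33.9% at the same depth. Prm1, a protamine gene of elongating spermatids, was seen in 93.6% and 82.6% of thinned members and in 93.4% and 81.1% of thinned Leydig-rich barcodes. Its share in members was thus close to that in a cell type that should lack it, while the 10 WT members with the most haploid marker RNA held 85.9% of those UMIs and the top 44 KO members 89.6%.

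Most members held transcripts of dividing cells, and nearly all held some meiotic RNA. Mki67, the proliferation marker Ki-67, had a UMI in 55 of 95 WT and 263 of 442 KO members. Top2a, the topoisomerase of dividing cells, had one in 76 and 340. Mki67 was found in 1.32% of WT and 2.59% of KO Leydig-rich barcodes. The 39 G2 and M phase genes together had a median of 61.9 UMIs per 10000 per WT member and 55.9 per KO member, and the S phase genes 39.2 and 38.9. Sycp1 and Sycp3, which build the central part and the axes of the synaptonemal complex, had a UMI in 95.8% and 98.9% (Sycp1) and 85.3% and 77.6% (Sycp3) of members. Both were still well below early spermatocytes, where Sycp3 was at 1311 and 1785 CPM against 225 and 245 in members.

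**Figure D2:**
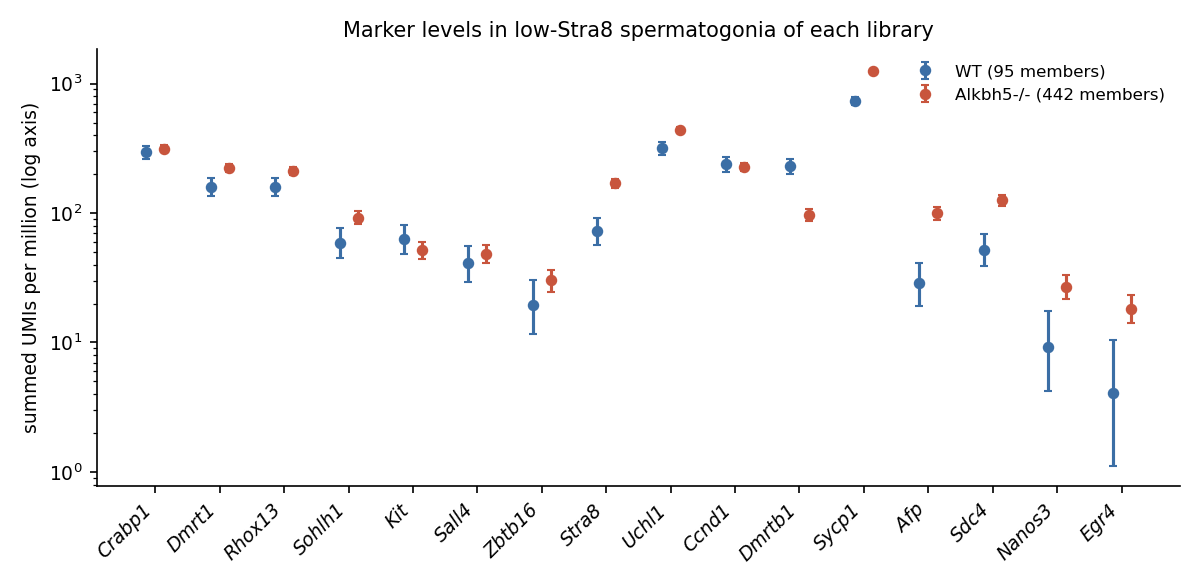
Summed CPM (vertical log axis) of 16 genes in the WT (blue, 95 barcodes) and KO members (red, 442 barcodes), with 95% exact Poisson intervals. The intervals of Crabp1, Kit and Ccnd1 overlap between the libraries, while Dmrtb1 is higher in WT and Sycp1, Afp and Sdc4 are higher in KO.

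The members were not of 1 kind. Among 23 genes of undifferentiated spermatogonia that are not in the rule, 59 WT members (62.1%) and 269 KO members (60.9%) had no UMI for any, whereas 10 WT (10.5%) and 82 KO members (18.6%) had a UMI for 3 or more. This division at 3 genes was made after the counts were seen and is a description. The median depth was 7452 UMIs in the 10 WT members and 8134 in the other 85, and 8098 and 6486 in KO. In KO, 22 of the 82 and 0 of the other 360 members had Ret, the GDNF co-receptor, which was one of the 23 genes.

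Genes that did not define the division, chosen after their values were seen, went with it in both libraries. Ccnd2, a cyclin of the G1 phase, was at 176 CPM in the WT members with 3 or more undifferentiated genes and at 9.05 in the others, and at 167 and 12.2 in KO. It had a UMI in 5 of 10 and 4 of 85 WT members, and in 45 of 82 and 19 of 360 KO members. Haploid-rich barcodes held it in 0.162% (WT) and 0.904% (KO), but Leydig-rich barcodes in 35.5% (WT) and 19.98% (KO). Ccnd2 was thus not particular to spermatogonia. Rhox10, an X-linked homeobox gene of early spermatogonia, was at 72.6 and 3.39 in WT and at 104 and 6.64 in KO. Dppa4, a chromatin factor of pluripotent cells, was at 51.9 and 1.13 in WT and at 41.0 and 4.06 in KO. Prtg (protogenin), an immunoglobulin superfamily receptor, was at 31.1 and 7.92 in WT, with intervals that overlapped, and at 68.3 and 4.80 in KO.

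The members with fewer than 3 undifferentiated genes held more RNA of 4 other genes. Esx1, an X-linked homeobox gene, was at 0 in the 10 WT members and at 210 in the other 85, and at 9.56 and 192 in KO. Meioc, a partner of YTHDC2 that is needed for extended meiotic prophase, was at 0 and 140 in WT and at 25.9 and 202 in KO. A count of 0 in these 10 members allows up to 38.3 CPM. Cyclin Ccnd1 was at 20.7 and 262 in WT and at 66.9 and 269 in KO. Mki67 was at 0 and 171 in WT and at 64.2 and 229 in KO, so the members with undifferentiated genes had less of it in both libraries. Uchl1 was at 405 and 305 in WT, where the intervals overlapped, and at 636 and 385 in KO.

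Of the rule's own genes, Kit had a UMI in 4 of the 82 and 134 of the other 360 KO members, and in 2 of 10 and 44 of 85 WT members. Sall4 was at 218 and 21.5 in WT and at 135 and 25.1 in KO, and Zbtb16 at 114 and 9.05 in WT and at 96.9 and 12.2 in KO. Crabp1 went the other way, at 83.0 and 317 in WT and at 175 and 352 in KO. A member needed 3 of the 8 genes, so a barcode without some of them had to have others, and these differences are partly set by the rule.

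**Figure D3:**
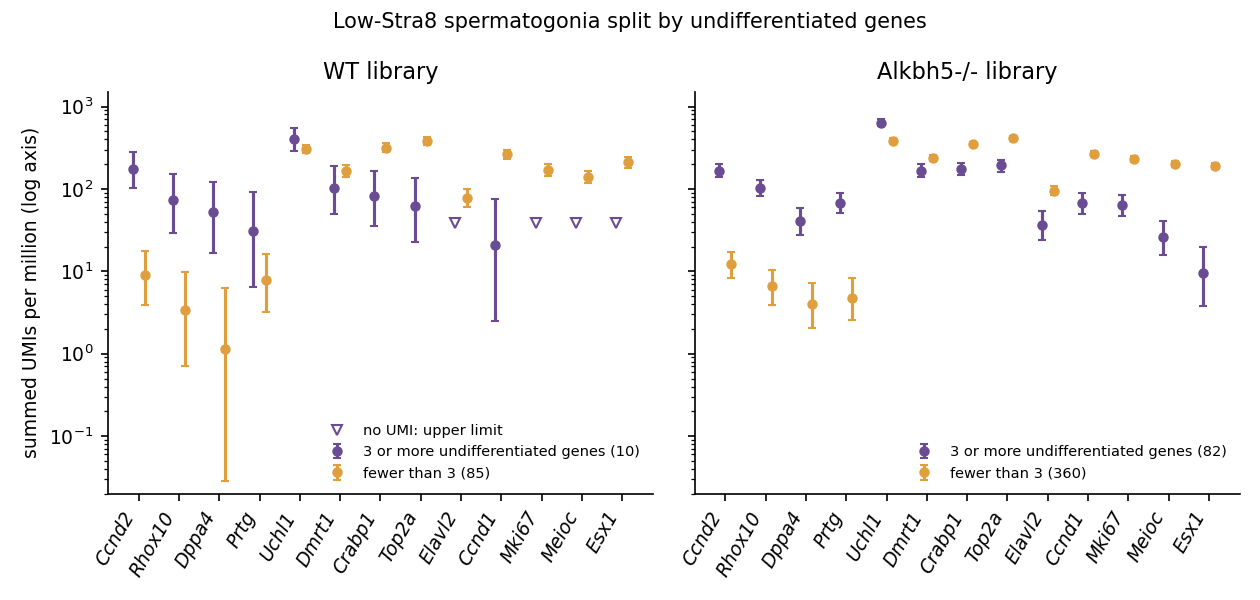
Summed CPM (vertical log axis) of 13 genes in members with 3 or more undifferentiated genes (violet) and in the other members (orange) of each library, with 95% exact Poisson intervals, and open triangles at the upper limit where no UMI was seen. Ccnd2, Rhox10, Dppa4 and Prtg are higher in the violet members of both libraries, and Ccnd1, Mki67, Meioc and Esx1 are lower.

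The 23 undifferentiated genes together were at 219 CPM in WT members with no Stra8 UMI (184 to 260) and at 52.8 in those with 1 to 4 (32.2 to 81.5), and 15 of the genes were higher and 4 lower without Stra8. In KO the sums were 511 (470 to 555) and 223 (205 to 243), with 21 genes higher and 1 lower. Sdc4, a syndecan on the cell surface, was at 81.5 CPM in the 55 WT members without Stra8 and at 5.28 in the 40 with 1 to 4 UMIs. In KO it was at 207 and 85.7. Meioc ran opposite, at 73.1 and 211 in WT and at 122 and 185 in KO. Esx1 was at 158 and 240 in WT, and at 148 and 155 in KO. Stra8 is itself a gene of the rule. A member without a Stra8 UMI had to meet the rule on the other genes alone, which include Sall4 and Zbtb16. The differences between members with and without Stra8 may thus be partly set by the rule, and that part was not tested.

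To compare the genotypes, a gene was called past the size criterion when at least 25% of the members of either library had a UMI for it and the natural log of 1 plus its mean count per 10000 UMIs differed by at least 0.25. The targeted gene came first. Alkbh5 (chr11:60536381-60558512, + strand, GRCm38) had 52 UMIs in 43.2% of the WT members, 53.03 CPM, and 0 UMIs in the KO members. Against the 3 counts that a count of 0 allows, the log2 ratio of KO over WT was at most -5.93. Of the 4459 genes with enough members, 51 (1.14%) were higher and 214 (4.8%) were lower in KO. The median log2 ratio of KO over WT among them was 0.09, and 58.3% of the genes were above 0. With 1 library per genotype these counts have no replicate check.

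Several of the genes with the largest ratios were as high in KO barcodes of other cell types. Gm11942, a processed pseudogene, had 1 UMI in the WT members and 340 in the KO members, 1.02 and 98.8 CPM (log2 ratio 6.60, interval 4.11 to 11.91). It reached 14.9 to 104 CPM in each KO class and at most 1 UMI in each WT class. Ptgds, a prostaglandin D synthase that marks Leydig cells, had 3 and 306 UMIs (4.86, 3.30 to 7.15), and in Leydig-rich barcodes it was at 15062 and 29217 CPM. The pseudogenes Pcna-ps2 (5 and 153 UMIs) and Rpl34-ps1 (6 and 145) had log2 ratios of 3.12 and 2.78, and how their reads were divided from the parent genes is not known. Tmsb4x, a thymosin that binds actin, had 41 and 590 UMIs (2.04), and in Sertoli-rich barcodes it was at 1002 and 3679 CPM. Of the 51 genes, 8 were over 5 times higher in Leydig-rich or Sertoli-rich barcodes than in members, against 108 of all 4459.

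Afp, the alpha-fetoprotein gene, was different in that its UMIs lay in the spermatogonia. It had 28 UMIs in the WT members (28.6 CPM, 16.8% of members) and 342 in the KO members (99.3 CPM, 27.8%), a log2 ratio of 1.80 (1.24 to 2.41). In high-Stra8 spermatogonia it was at 20.8 and 132 CPM, in early spermatocytes at 1.20 and 11.4, in Leydig-rich barcodes at 0 and 2.31, and in haploid-rich ones at 0.053 and 0.208. No UMI was seen in 79 WT and 319 KO members, and the highest member held 5 in WT against 13 in KO. Rabep1, a RAB5 effector of endosomes (chr11:70844778-70943105), had 24 and 231 UMIs (1.45, 0.85 to 2.13). It lies on the same chromosome as Alkbh5. Among genes chosen after their values were seen, Hmox1, the inducible heme oxygenase, had 47 and 345 UMIs (1.06), and Stk31, a germ cell kinase with a tudor domain, 105 and 718 (0.96). P4hb, Cct6a, the ribosomal protein genes and mt-Rnr2 were chosen in the same way.

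Sycp1 was also higher, with 723 UMIs in WT and 4321 in KO (737 and 1255 CPM, log2 ratio 0.77, interval 0.65 to 0.88). Tex101, a surface glycoprotein of germ cells, had 263 and 1464 UMIs (0.66, 0.47 to 0.86). The subunits of the CCT chaperonin ring Cct6a (0.68), Cct2 (0.65) and Cct5 (0.58) were past the criterion, while another subunit, Tcp1, was at -0.24 and not past it. The endoplasmic reticulum chaperones Hsp90b1 (505 and 2479 UMIs, 0.48) and P4hb (126 and 700 UMIs, 0.66) were higher as well. Ribosomal protein genes took 10.6% of the UMIs of the WT and 12.4% of the KO members, and mitochondrially encoded genes 3.72% and 4.65%. Rpl5, Rpl3, Rps3a1, Rps12 and the mitochondrial ribosomal RNA mt-Rnr2 were past the criterion, with log2 ratios of 0.80, 0.68, 0.56, 0.49 and 0.65. The X-linked Rps4x was higher as well (34 and 337 UMIs, 1.50). Unlike the 4 ribosomal protein genes just named, it was over 5 times higher in Leydig-rich or Sertoli-rich barcodes than in members. Other ribosomal protein genes passed in the other direction, Rpl29 with 582 WT and 1206 KO UMIs (-0.76) and Rpl34 with 1935 and 5208 (-0.38).

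The 214 genes that were lower in KO included Crls1, the cardiolipin synthase, with 166 WT and 119 KO UMIs (169 and 34.6 CPM, log2 ratio -2.29). Others are known from spermatids or sperm. Tekt2, a tektin of the sperm flagellum, had 185 and 166 UMIs (-1.97), and Spata46 374 and 340 (-1.95). Spaca7, an acrosomal protein, had 134 and 123 (-1.94). Of the 214 genes, 82 were over 5 times higher in haploid-rich barcodes than in members, against 228 of all 4459 genes compared. Spaca7 was among the 82, and Crls1, Tekt2 and Spata46 were not. For 132 of the 214 genes, neither haploid-rich nor Leydig-rich or Sertoli-rich barcodes were over 5 times higher than members. Haploid-rich barcodes were nearly the same in both libraries for Spata46, at 311 and 341 CPM.

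The UMIs of these 214 genes lay in few members. They summed to 70036 CPM in WT and 33890 in KO, and the 10 WT members with the most of them held 60.7%, as did the top 44 KO members with 63.7%. Scrublet, which marks barcodes that look like 2 cells, called 15 of 95 WT and 36 of 442 KO members doublets. These held 52.0% and 37.6% of the UMIs of the 214 genes, against 26.8% and 12.0% of all UMIs of the members. Without them the sums were 45894 and 24055 CPM, and 90 genes were lower in KO, of which 65 were among the 214. The median member had 202 UMIs per 10000 of these genes in WT and 128 in KO. Of the UMIs of the 51 higher genes the same number of top members held 18.1% and 17.6%, so their UMIs were spread over many members. The part of doublets and of free spermatid RNA in the 214 genes was not tested.

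Tmem243, which encodes a membrane protein, had the lowest ratio of the genes past the criterion after Alkbh5, and its level in members was above that in haploid-rich barcodes. It had 80 UMIs in 41.1% of the WT members and 55 UMIs in 10.2% of the KO members, 81.6 and 16.0 CPM, with a log2 ratio of -2.35 (-2.87 to -1.84). It was also lower in KO in high-Stra8 spermatogonia (51.9 and 17.6 CPM), early spermatocytes (54.2 and 14.4) and haploid-rich barcodes (7.16 and 4.07). Dmrtb1, a DM domain factor that times the entry of spermatogonia into meiosis, had 225 UMIs in 58.9% of the WT members and 335 in 35.5% of the KO members, 229 and 97.3 CPM (-1.24, -1.49 to -0.99). Gtsf1, a small zinc finger protein of the piRNA pathway, was at 593 and 327 CPM (-0.86), and Ncor1, a corepressor that binds unliganded retinoic acid receptors, at 151 and 109 (-0.47).

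Gene lists put these values in context. Among 28 genes of undifferentiated spermatogonia, 23 had at least 10 UMIs summed over the members of both libraries. Of these, 21 had a ratio above 0, and the median log2 ratio was 0.71. The KO members held 3442597 UMIs and the WT members 980547, so a gene high in KO reached 10 UMIs more easily. Ratios above 0 were thus favoured by this filter, which also applied to the lists below. The median of 0.09 over all genes compared was from an unlike set, genes seen in 25% of members, a cut that 2 of the 23 met. The list median was over the 22 genes with UMIs in both libraries, and it was 0.77 with Ret at its bound. In Sertoli-rich barcodes the list summed to 174 CPM in WT and 627 in KO, and in Leydig-rich ones to 180 and 204. In the members it summed to 289 CPM in WT and 485 in KO, so the KO sum was below that in Sertoli-rich barcodes. Sdc4 had 51 and 431 UMIs (log2 ratio 1.27, 0.85 to 1.72), Nanos3, an RNA-binding protein of progenitors, 9 and 93 (1.56, 0.57 to 2.73), and Egr4, an early growth response factor, 4 and 63 (2.17, 0.74 to 4.09). Of the list, Taf4b and Sall4 alone had a UMI in enough members to be compared by the size criterion, and neither passed it. Sall4 and Zbtb16 of this list are genes of the rule. Gfra1, with 12 and 36 UMIs, had an interval that spans 0 (-1.20 to 0.85).

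Among 22 genes of differentiating spermatogonia, 15 had a UMI in enough members for the criterion. Stra8 passed higher and Dmrtb1 lower, and the median was 0.45. Over all genes compared, 1.14% passed higher and 4.8% lower. The list holds Crabp1, Dmrt1, Sohlh1, Rhox13 and Stra8, which chose the members, so its values are partly set by the rule. Of 34 genes of meiotic entry and prophase, 20 could be compared. Sycp1 and Tex101 passed higher and none lower, with a median of 0.39. Smc1b, a meiotic cohesin, was at 668 and 863 CPM (log2 ratio 0.37, not past), and Hormad1, an axis protein, at 197 and 292 (0.57, not past). Rec8, a cohesin subunit of meiosis, had 10 and 29 UMIs, too few members for the criterion. Of 25 genes of retinoic acid supply and response, 16 had at least 10 UMIs and 4 could be compared. Stra8 passed higher and Ncor1 lower, and the median was -0.06. Stra8 and Crabp1 of this list are genes of the rule. Lrat, which stores retinol as esters, had 9 and 3 UMIs (-3.40, -5.92 to -1.39).

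Of 30 genes of KIT and GDNF signalling, 25 had at least 10 UMIs, and their median was 0.49. Only 9 had a UMI in enough members for the criterion, and none passed. Over all genes compared, 1.14% passed higher and 4.8% lower. Ret had 0 UMIs in WT and 27 in KO, so that its log2 ratio was at least 1.36 against the 3 counts that a count of 0 allows. Ptpn11, the SHP2 phosphatase below KIT, had 27 and 183 UMIs (0.95, 0.36 to 1.59, not past). Among 22 m6A writers, erasers and readers, 15 could be compared. Hnrnpc passed higher (0.55), and Alkbh5 alone passed lower. The other eraser, Fto, had 29 and 84 UMIs (-0.28), the writer genes Mettl3 7 and 28 (0.19) and Mettl14 24 and 102 (0.28), and the reader Ythdc2 47 and 183 (0.15). The intervals of these 4 genes span 0. Enough members had a UMI for 30 genes of the S phase list (median 0.16) and 37 of the G2 and M phase list (0.07). The p53 list (0.17) had 12 such genes and the DNA methylation list (0.16) had 4. None of them passed the criterion in either direction, and the medians of the last 3 lists were below 0 under some alternatives. In the heat shock list 19 genes could be compared, and the 3 past the criterion were Hsp90b1, Cct2 and Cct5 (median 0.25). In the splicing list 1 of 42 passed higher and 1 lower (0.25), and in the piRNA list Gtsf1 alone of 15 passed lower (0.29).

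Immediate early genes had a median of 0.90 over the 22 genes with at least 10 UMIs, 18 of them above 0. Only 3 had a UMI in enough members for the criterion, and none passed it. That median left out Atf3, which was at 0 in WT. It was 0.47 (14 of 21 genes above 0) without the 9 KO members that held 3 or more macrophage markers, and 0.46 with 4 of the 8 genes of the rule required. Fos had 64 and 420 UMIs (65.3 and 122 CPM, log2 ratio 0.90), Jun 17 and 213 (1.84), and Klf6 13 and 199 (2.12). Atf3 had 0 and 191. The top 10 WT members held 51.9% and the top 44 KO members 62.9% of the UMIs of this list, and the median member had 2.75 and 3.07 per 10000. In Leydig-rich barcodes Jun was at 777 and 1370 CPM. With genes over 5 times higher in Leydig-rich or Sertoli-rich barcodes taken out, 7 genes of the list remained, with a median of 0.44.

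RNA of somatic cells was also higher in the KO members. The 8 macrophage markers summed to 7.14 CPM in WT and 208 in KO, where 44 members held 99.9% of them and 9 had 3 or more of the markers. Lyz2, Pf4 and C1qc were at 1 and 344, 0 and 85, and 0 and 99 UMIs. Without those 9 members, 50 genes were higher and 209 lower in KO. The 8 Leydig markers summed to 15.3 and 158 CPM. Their median member had 0 UMIs in both libraries. For pachytene spermatocytes the 10 markers had a median of -1.20, with Ldhc, Pgk2 and Insl6, of 5 compared, past the criterion as lower. The 10 round spermatid markers had a median of -1.76. The median of the macrophage list was 4.56 over the 2 markers with a UMI in both libraries and 2.498 with the other 5 at their bound. Over 2 markers it was 0.59 without the 9 members. For the 10 haploid markers the median was -0.17, and its sign depended on the members, at 0.60 with 4 of the 8 genes required and -0.91 without doublets.

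**Figure D4:**
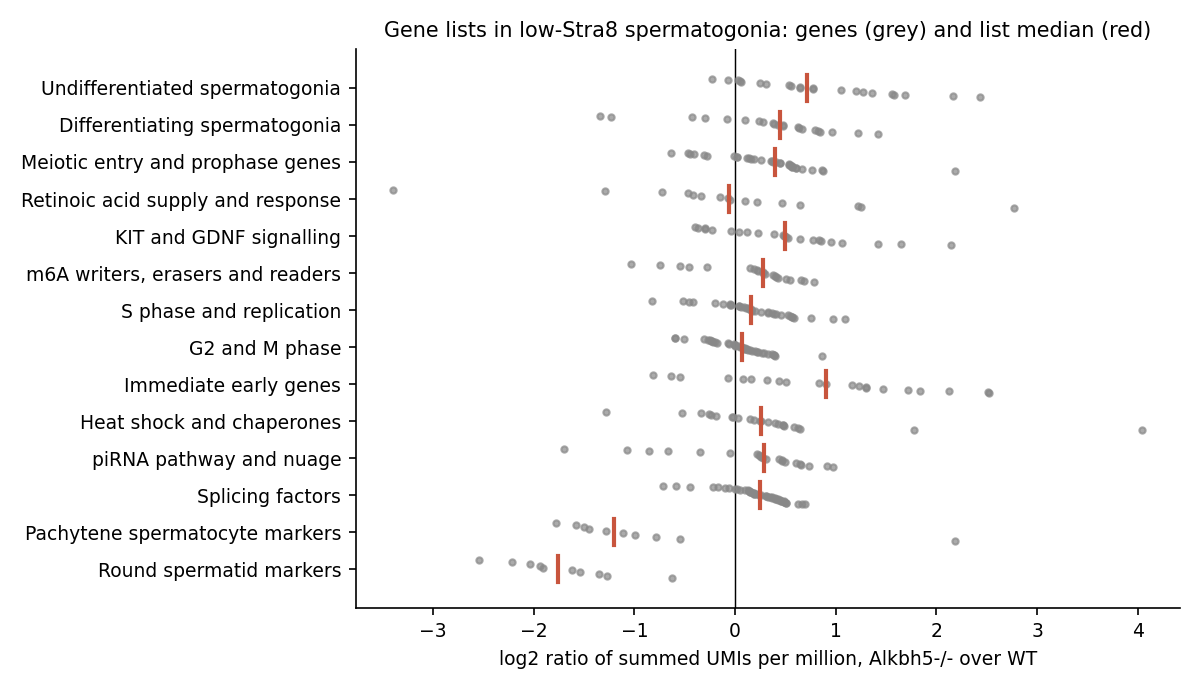
Log2 ratio of summed CPM, KO over WT, in members (horizontal axis), for genes of 14 lists. Grey points are genes with at least 10 UMIs summed over both libraries, and the list median is in red. The undifferentiated and immediate early lists have medians of 0.71 and 0.90, and the pachytene and round spermatid lists lie left of 0 at -1.20 and -1.76.

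Within each library, the members were compared with high-Stra8 spermatogonia. Because Stra8 divided the 2 groups, this is a description of what else went with it. In WT 203 of 4959 genes (4.09%) were higher and 220 (4.44%) lower in the low members, with 30 high-Stra8 barcodes on the other side. In KO, with 331 of them, 31 of 4174 (0.743%) were higher and 73 (1.75%) lower. No test was made between the groups. Past the criterion in both libraries were 3 genes that were higher (0.0755% of 3976), Crisp2, Mki67 and Txn1, and 20 that were lower (0.503%). With a CPM ratio of 2 required, 0 were higher and 5 lower, and with Stra8 at 0 to 2 UMIs 7 were higher. Mki67 and Txn1 were past it in both libraries in each alternative but the CPM ratio, and Crisp2 was not without doublets or without haploid-rich barcodes. Of 2044 genes with enough UMIs, 57.9% had the same sign in both libraries, and the medians over all genes compared were -0.06 and -0.07.

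Mki67 was at 154 CPM against 89.97 in high-Stra8 WT barcodes (log2 ratio 0.78, 0.17 to 1.44) and at 194 against 135 in KO (0.52, 0.34 to 0.71). Ccng1, a cyclin G that p53 induces, was at 97.9 and 51.9 in WT (0.92) and at 112 and 72.7 in KO (0.63), where it was not past the criterion. Txn1, the cytosolic thioredoxin, was at 164 and 111 in WT (0.57) and at 264 and 180 in KO (0.55). Txn1 was also over 5 times higher in Leydig-rich or Sertoli-rich barcodes than in members. Nusap1, a spindle protein, had ratios of 0.84 and 0.46, the second not past the criterion. In WT 37 of the 39 G2 and M phase genes could be compared, and 12 were higher and none lower (median 0.37). In KO 38 could be compared, 2 were higher and none lower, and the median was -0.01. Over all genes compared, 4.09% were higher in WT and 0.743% in KO. Of the 39 genes, 19 had a ratio above 0 in KO and 20 below it. Of the 30 S phase genes compared in each library, 2 were higher and 1 lower in WT (median -0.03), and 0 were higher and 1 lower in KO (median -0.15).

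Genes that were lower in the low-Stra8 members of both libraries included several of mitochondria, iron handling and growth signalling. Ftl1, the ferritin light chain, was at 206 and 356 in WT (-0.79, -1.14 to -0.43) and at 239 and 462 in KO (-0.95, -1.08 to -0.83). Chchd1, a mitochondrial ribosome protein, was at 72.4 and 145 (-1.01) and at 76.1 and 136 (-0.84), and Fis1, a mitochondrial fission factor, had ratios of -0.90 and -0.74. Mtor, the kinase of the growth pathway, was at 31.6 and 76.1 (-1.27, -2.10 to -0.41) and at 45.6 and 80.3 (-0.82, -1.12 to -0.52). Uchl1 was at 315 and 481 in WT (-0.61) and at 439 and 752 in KO (-0.78). Snx6, a retromer sorting nexin, had ratios of -0.97 and -0.78, and Rabep1 of -1.64 and -0.77. The other genes of this set were Atp5g3, Bex3, Calm2, Dnaja1, Eif1ax, Hspe1, Macf1, Me2, Ndufb11, Ndufv3, Nedd8, Sod2 and Stra8. No list of mitochondrial genes was among those described, so the grouping is of these 20 names and was seen after the values.

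Rec8 was lower together with Stra8, at 10.2 CPM in low and 41.5 in high-Stra8 barcodes of WT (log2 ratio -2.03, past the criterion) and at 8.42 and 16.6 in KO (-0.98, in too few members). Ccnd2 had opposite ratios, 1.30 in WT on 25 and 3 UMIs (-0.42 to 3.67) and -1.12 in KO on 155 and 294 (-1.41 to -0.83). Of the 34 meiotic genes, 23 could be compared in each library. In WT 6 were lower and none higher (median -0.33), against 4.44% lower and 4.09% higher over all genes. In KO 1 was lower and 2 higher (median -0.07), against 1.75% and 0.743%.

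**Figure D5:**
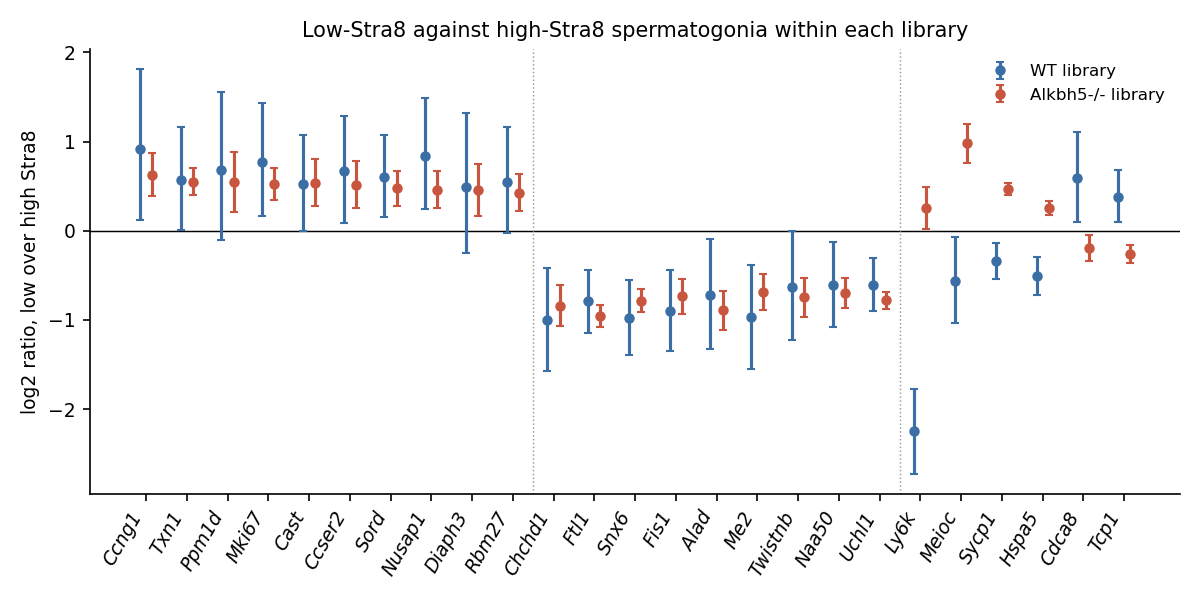
Log2 ratio of summed CPM, low-Stra8 members over high-Stra8 spermatogonia (vertical axis), in WT (blue) and KO (red), with 95% exact conditional intervals, for 10 genes higher and 9 lower in both libraries and, right of the second dotted line, 6 genes with opposite signs. The values from Ccng1 to Rbm27 lie above 0, with some WT intervals that reach it, those from Chchd1 to Uchl1 below it, and Ly6k runs from -2.24 in WT to 0.26 in KO.

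Against early spermatocytes the members differed in more genes, with 622 of 5025 (12.4%) higher and 727 (14.5%) lower in WT and 588 of 4246 (13.8%) higher and 699 (16.5%) lower in KO. In both libraries 429 genes were higher (10.4% of 4130) and 506 lower (12.3%). Ccnd1 was at 239 CPM against 33.7 in WT (log2 ratio 2.82) and at 226 against 36.4 in KO (2.64). Cenpa, the centromeric histone, had ratios of 2.53 and 2.47, Gsr, the glutathione reductase, 2.67 and 2.41, and Ccna2, the S phase cyclin, 2.34 and 1.98. Early spermatocytes were higher for Hormad1 (1824 and 2866 CPM), with ratios of -3.21 and -3.30 in the members, and for Hfm1, a meiotic helicase (-4.29 and -3.56). H2-K1, a class I histocompatibility gene, was at 49.97 against 414 in WT (-3.05) and at 48.2 against 414 in KO (-3.10). Of the 34 meiotic genes, 29 could be compared in WT and 26 in KO. Among these, 24 were lower in the WT and 23 in the KO members, and none was higher. The list medians were -1.17 and -1.16. The 6 genes that define early spermatocytes had to differ here.

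Chromosome X genes took 1.86% of the UMIs of the WT and 2.33% of the KO members, with medians per member of 1.88% and 2.14%. In early spermatocytes the medians were 2.39% and 2.68%, and the 10th percentile of barcodes there was 0.387% and 0.963%, against 1.41% and 1.61% among the members. The X chromosome is transcriptionally silenced in pachytene spermatocytes, and the 10th percentile of members lay near their median. Ribosomal protein genes took 10.6% and 12.4% of the members' UMIs and 7.42% and 8.38% of those of early spermatocytes.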

How the data were processed

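Testis cells of 1 WT and 1 Alkbh5-/- library were captured on a microfluidic chip (GEXSCOPE, Singleron), and both read ends were sequenced over 150 bases. Per the submitters' notes and methods, the authors aligned read 2 with STAR 2.5.3a, assigned reads with featureCounts 1.6.2 and made the deposited count tables by grouping reads of 1 barcode, UMI and gene into 1 count. The methods name a human build, while the gene symbols are those of mouse, and positions given here come from GENCODE vM21 (GRCm38) by symbol. The deposited counts were used without further filtering of barcodes, in 80283221 UMIs of WT and 82056760 of KO. The members and gene lists were chosen with earlier results of these data known.

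UMIs were summed over the members of a library and scaled to CPM. Sums have exact Poisson, shares exact Clopper-Pearson and ratios exact conditional intervals at 95%, all covering counting error only. Genes were called by a size criterion (a UMI in 25% of barcodes of either group, and a difference of 0.25 in ln of 1 plus the mean per 10000 UMIs). With 1 library per genotype no test was made and no p-value is given. The named genes were those of the rule, Alkbh5, members of the lists described, and in each comparison the 10 highest and the 10 lowest CPM ratios among genes seen in 25% of barcodes with at least 100 UMIs in all. Between low and high Stra8, these were ranked by the smaller of the ratios of both libraries. Other genes are said to be chosen after their values were seen. Scrublet (scanpy 1.11.5, expected rate 0.06) called doublets, which were kept and left out in an alternative. Thinning drew UMIs without replacement. Scripts were tested on simulated counts. Python 3.11.15, numpy 2.4.6, scipy 1.17.1 and pandas 2.3.3 were used. The result for 1 listed gene is not reported here.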

Additional observations from a re-analysis of the deposited data

Results flagged for a closer look

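Between low-Stra8 and high-Stra8 spermatogonia, 13 of 504 genes had log2 ratios of opposite sign in WT and KO with both counting intervals off 0. The difference between the libraries was not tested, and the WT high-Stra8 group had 30 barcodes. Among meiotic genes, Meioc was at -0.56 in WT and 0.98 in KO, Sycp1 at -0.34 and 0.47, and Prdm9, a gene of the rule with 11 UMIs in the WT high-Stra8 group, at -1.32 and 0.56. Ly6k, a surface protein of germ cells, was at -2.24 and 0.26. Shcbp1l, a spindle protein of meiosis with 4 UMIs in that group, was at 1.49 and -0.47. The chaperones Hspa5 and Hsp90b1 were at -0.51 and 0.25, and at -0.32 and 0.26. Tcp1, a chaperonin subunit, was at 0.38 and -0.26, and Cdca8, of the chromosomal passenger complex, at 0.59 and -0.19.

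The other 4 genes were those of spermatid chromatin. Prm1 was at -0.43 in WT and 0.25 in KO, Prm2 at -0.30 and 0.54, Tnp1 at -0.28 and 0.29, and Tnp2 at -0.53 and 0.13. Prm1 was also seen in 93.4% and 81.1% of thinned Leydig-rich barcodes, and the part of free RNA in these ratios was not tested.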

How the results depend on the processing

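The KO share stayed above the WT share in each alternative tried. With 4 of the 8 genes required, the shares were 1.08% and 4.38%. In KO the share was 4.93% with Stra8 at 0 to 2 UMIs, 8.56% with Stra8 at 0 to 9 and 8.22% over germ cell barcodes, where the ratio was 4.83. Thinned, the shares were 1.24% and 5.49%. Between genotypes, 97 genes were lower in KO with 4 of 8 genes and 90 without doublets, and 25 were higher when a CPM ratio of 2 was required. Between low and high-Stra8 barcodes of WT, 308 genes were higher and 294 lower without haploid-rich barcodes, against 203 and 220 with them. The larger of the WT counts was thus that of the higher genes, the reverse of the main result. In KO 2 were higher and 21 lower with a CPM ratio of 2. The causes were not tested. Of 3400 single-gene ratios between genotypes 261 moved, of 160 between low and high-Stra8 barcodes 9, and of 215 list medians 8. A ratio counted as moved when it left the counting interval of the reported value, and a median when it left a band around that value as wide as the median interval of its genes. None of the called ratios changed sign, but 4 of 22 list medians did under some alternative. The haploid marker median (-0.17) ran from -0.91 to 0.60, that of G2 and M phase (0.07) from -0.18 to 0.11, that of p53 (0.17) from -0.17 to 0.22, and that of DNA methylation (0.16) from -0.03 to 0.21. The median of the undifferentiated list ran from 0.42 to 1.19. Scaling by the mean over cells cannot change the counts of genes, since the criterion already uses it. Leaving out haploid-rich or macrophage-bearing members was chosen after seeing the data. No paired analysis was possible because each genotype had 1 library. For the same reason no replicate could be left out, and the counting intervals say nothing of the spread between mice.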
